A study of Homo sapiens with 12 samples.

Results

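Aminoacyl-tRNA synthetases join each amino acid to its tRNA before it can enter a protein, and human cells keep one set of these enzymes for the cytosol and another for mitochondria. The 39 genes described here were chosen by name: 23 cytosolic members, which are 20 enzymes or enzyme subunits and the scaffold proteins AIMP1, AIMP2 and EEF1E1, and 16 mitochondrial enzymes. All 39 were found among the 60664 genes of the count table, and all 39 passed the filter on low counts that left 17349 genes for testing.

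Poly(A)-selected RNA was measured in 12 libraries from 2 human leukaemia lines, TOM-1, a B-lymphoblast line carrying the Philadelphia chromosome, and RS4;11, a B-lymphoblast line with a rearranged KMT2A gene. Cells labelled wild type of each line were given ADI-PEG20 at 1000 ng/ml or kept as control culture for 24 h, with 3 libraries in each of the 4 groups, and all groups shared RPMI medium with serum and antibiotics. ADI-PEG20, arginine deiminase coupled to polyethylene glycol, breaks down the arginine of the medium, and the series asks how its effect differs between leukaemias that can or cannot make arginine through ASS1. Each group is 1 line in culture. The labels do not say that the replicates were separate cultures, so p-values measure only the spread between these libraries, which may be technical.

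The enzymes and their partners are known for a link to amino acid supply. Uncharged tRNA activates the kinase GCN2, which slows translation through eIF2 while raising the transcription factor ATF4, and several cytosolic synthetase genes are textbook targets of ATF4. Most mitochondrial enzymes are encoded by separate nuclear genes, whereas GARS1 and KARS1 supply both compartments from 1 gene each, QARS1 is cytosolic with mitochondrial glutaminyl-tRNA made by a separate route, and EPRS1 joins the glutamyl and prolyl activities in 1 protein.

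Total counts ran from 18958144 to 35956959 per library. All 8 B-lymphoblast markers had reads in every group, with summed levels of 5356.4 to 6653.6 CPM (read counts scaled to a common library size) in TOM-1 control and 1946.6 to 2069.3 in RS4;11 control. Most of this gap was DNTT, with 114976, 83880 and 73055 reads in TOM-1 control against 1842, 2155 and 1360 in RS4;11 control. By log2 difference 6 of the 8 were higher in TOM-1 control, and CD79A and EBF1 were lower. The KMT2A-linked genes HOXA7, HOXA9, HOXA10 and MEIS1 were at 0 in every TOM-1 library and summed to 253.9 to 275.5 CPM in RS4;11 control. Of 10 markers of other blood cells, 7 were at 0 in TOM-1 control, among them CD3E, CD3D, LYZ, HBB and ELANE, and their summed level was 37.4 to 91.4 CPM there and 55.3 to 60.0 CPM after treatment, nearly all of it MPO and NKG7.

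1 library stood apart from the others of its group. TOM-1 control replicate 3 had reads for 14963 genes, against 19857 to 21997 in the other 11 libraries, and ribosomal protein genes took 19.75% of its counts, against 5.91% to 9.89%. Comparisons that include TOM-1 control were therefore also fitted without it, and "without replicate 3" stands for that fit.

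The promoters of several cytosolic members share a short sequence. Promoter windows from RefSeq (GRCh38.p14), which run from 250 bases before to 50 bases after a start site, were held for 33 members, 19 cytosolic and 14 mitochondrial. LARS1, TARS3, VARS1, YARS1, AARS2 and VARS2 had no entry. The 8 letters TGATGCAA, the core of the element to which ATF4 binds with C/EBP partners, were searched on both strands. Counting a gene once if any of its windows held them, they occurred in 6 of the 19 cytosolic members, in 0 of the 14 mitochondrial members and in 295 of all 27305 genes with a window (1.08%). By window, the letters were in 6 of the 45 windows of the members (13.3%) and in 304 of all 35116 windows (0.866%). The 6 matches are shown because these genes were among those that rose in TOM-1; capitals mark the 8 letters, and each stretch of 30 bases is written 5′ to 3′ on the strand that reads TGATGCAA.

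AARS1: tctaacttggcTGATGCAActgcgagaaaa

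CARS1: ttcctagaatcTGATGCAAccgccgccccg

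IARS1: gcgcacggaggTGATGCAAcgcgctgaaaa

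MARS1: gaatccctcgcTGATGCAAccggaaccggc

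NARS1: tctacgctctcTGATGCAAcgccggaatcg

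TARS1: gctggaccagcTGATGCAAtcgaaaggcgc

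These stretches lie at chr16:70289675-70289704 on the plus strand for AARS1, chr11:3057407-3057436 on the plus strand for CARS1 and chr9:92293692-92293721 on the plus strand for IARS1. Those of MARS1 (chr12:57488053-57488082), NARS1 (chr18:57621804-57621833) and TARS1 (chr5:33440956-33440985) are on the minus strand. GENCODE 29 places the AARS1 match upstream of every transcript of the gene and the other 5 in exonic untranslated sequence. Only the NARS1 match reads on the strand of its own gene. A match is a description of letters, not of a bound site.

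The looser pattern TGATGNAA, which includes every TGATGCAA, occurred in 4.46% of all genes with a window (3.62% of windows) and added GARS1 (TGATGAAA) and YARS2 (TGATGGAA) among the members. The core pattern of interferon-responsive promoters, GAAA and GAAA spaced by any 2 bases, was searched in the same way. It occurred in 4.38% of all genes with a window (3.57% of windows) and in 2 members, WARS1 and EARS2. The WARS1 match is shown because this gene had the largest rise of all members; it lies at chr14:100375383-100375412 on the minus strand, in exonic untranslated sequence, with the pattern in capitals.

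WARS1: tttcagaaggGAAACTGAAAgaaagagggg

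Under ADI-PEG20, most cytosolic synthetase genes of TOM-1 changed, and they moved apart: 11 of 23 rose, 6 fell and 6 did not pass the test. Those that rose charge tryptophan, serine, alanine, isoleucine, asparagine, cysteine, methionine, threonine, tyrosine and glycine, with the scaffold protein AIMP2. Those that fell charge glutamine, valine, histidine, phenylalanine, lysine and arginine. The calls are from edgeR's quasi-likelihood test at an adjusted p of 0.05, adjusted over all 17349 genes, of which 31.9% were called in this comparison, 15.9% higher and 15.9% lower. The median log2 fold change was 0.43 over the 23 cytosolic members and 0.05 over all genes tested. Without TOM-1 control replicate 3, 13 cytosolic members rose and 6 fell with a median of 0.73, where 41.6% of 18321 genes were called, 21.8% higher and 19.8% lower. The treated libraries lay wholly above the controls for 12 cytosolic members and wholly below for 6, against 26.1% and 20.1% of all genes. In bulk RNA of this kind, fewer cells and less RNA per cell cannot be told apart, and all values are shares of a library.

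**Figure D1:**
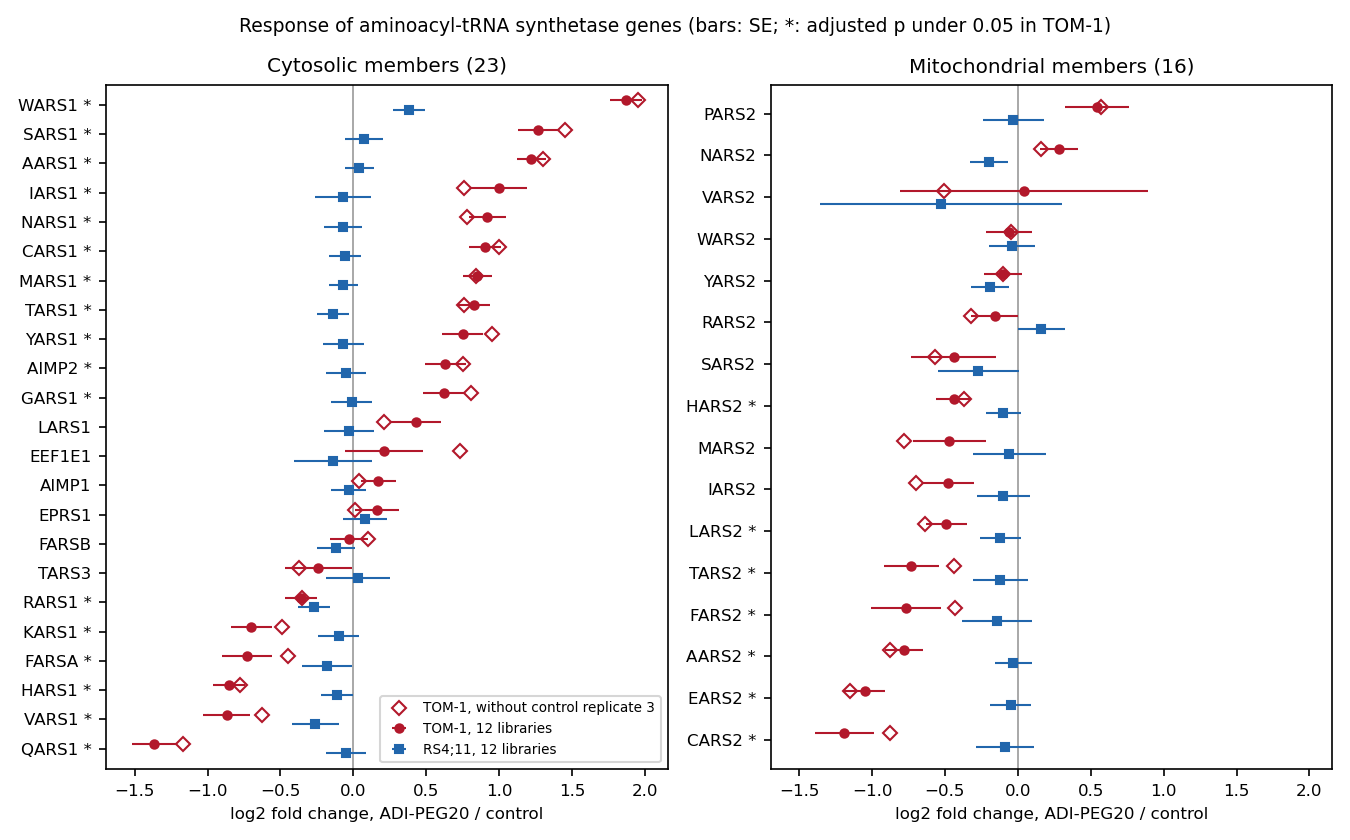
Log2 fold change with ADI-PEG20 against control for the 23 cytosolic and 16 mitochondrial members, in TOM-1 (circles) and RS4;11 (squares), with bars for the SE and open diamonds for TOM-1 without control replicate 3. In TOM-1 the cytosolic members spread from -1.37 for QARS1 to 1.87 for WARS1, whereas every member of RS4;11 except VARS2 lies within 0.38 of no change.

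WARS1, the tryptophanyl enzyme, is also known as a gene induced by interferon. It stood at 147.9, 134.9 and 168.9 CPM in the TOM-1 control libraries and at 547.2, 559.4 and 541.1 CPM in the treated ones. All treated libraries lay above all controls, with a 3.65-fold rise (log2 fold change 1.87, SE 0.11, adjusted p = 1.22e-06; without replicate 3, 1.95). In GENCODE 29 the gene occupies chr14:100333788-100376805 on the minus strand, and 10.6% of its exonic bases also belong to WDR25 and AL157871.4 on the other strand. The use of strand in counting is not given in the sources used here, so reads from such shared bases cannot be assigned with certainty.

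SARS1, which charges serine, held 144.9, 146.4 and 203.2 CPM in control and 402.5, 388.1 and 402.1 CPM with ADI-PEG20. The groups did not overlap, though control replicate 3 was the highest control, and the log2 fold change was 1.27 (SE 0.14, adjusted p = 5.39e-05), or 1.45 without that library.

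AARS1, which charges alanine, had 388.4, 394.4 and 463.3 CPM in control and 973.4, 989.8 and 942.6 CPM after treatment. The treated values were well clear of the controls, a 2.33-fold rise (log2 fold change 1.22, SE 0.10, adjusted p = 9.85e-06; without replicate 3, 1.30). Per kilobase of exon, AARS1 was the most abundant of the 39 members in each of the 4 groups, at 92.3 ± 9.26 CPM per kb in TOM-1 control and 215.3 ± 5.33 after treatment (mean ± SD, n = 3). Length here is that of all annotated exons of a gene merged, 4498 bases for AARS1 and 10037 for CARS1, not that of 1 transcript. Ranks per kilobase therefore depend on the annotation.

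IARS1 and NARS1, for isoleucine and asparagine, also rose, and in both of them control replicate 3 was the lowest control. IARS1 read 237.6, 233.1 and 129.0 CPM in control against 396.6, 410.2 and 392.2 CPM with the drug (log2 fold change 1.00, SE 0.19, adjusted p = 0.00197). Without replicate 3 its log2 fold change was 0.76, still past the threshold. NARS1 read 211.0, 220.5 and 156.6 CPM in control against 369.1, 371.6 and 371.4 CPM treated (log2 fold change 0.92, SE 0.13, adjusted p = 0.000281; without replicate 3, 0.78). The 3 treated NARS1 values lay within a few CPM of each other and above every control.

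GARS1, the glycyl enzyme of both compartments, rose less, from 103.5, 112.6 and 155.9 CPM to 182.1, 195.0 and 193.3 CPM (log2 fold change 0.62, SE 0.14, adjusted p = 0.00608; without replicate 3, 0.81). TARS1, the main threonyl enzyme, went from 209.7, 215.5 and 185.0 CPM to 375.6, 359.7 and 347.2 CPM (log2 fold change 0.83, SE 0.11, adjusted p = 0.000192; without replicate 3, 0.76). In neither gene did treated and control libraries overlap. TARS3, its cytosolic paralog, was low in TOM-1, at 5.0, 9.09 and 4.91 CPM in control and 5.22, 6.3 and 4.6 CPM treated, with overlapping groups; the log2 fold change of -0.24 did not pass the test (SE 0.23, adjusted p = 0.491; without replicate 3, -0.37). How the counting treated reads shared by these paralogs is not given in the sources used here.

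The other cytosolic enzymes that rose were CARS1 for cysteine (log2 fold change 0.90), MARS1 for methionine (0.85) and YARS1 for tyrosine (0.75), with 1.00, 0.84 and 0.95 in the same order without replicate 3. 12.4% of the exonic bases of MARS1 are shared with ARHGAP9 and DDIT3 on the other strand, and DDIT3, a stress transcription factor, went from a mean of 21.9 to 101.5 CPM while MARS1 went from a mean of 252.9 to 456.7 CPM. The part of shared reads in the MARS1 value was not tested.

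QARS1, which charges glutamine, had the largest fall of the cytosolic members. It held 194.6, 217.7 and 298.3 CPM in control and 92.9, 89.9 and 91.6 CPM with ADI-PEG20. The 3 treated libraries were far below the lowest control, at 0.386 of control (log2 fold change -1.37, SE 0.15, adjusted p = 5.35e-05), and the log2 fold change was -1.17 without control replicate 3. Per kilobase it went from rank 4 of the 39 members in TOM-1 control, at 50.3 ± 11.6 CPM per kb, to rank 19, at 19.4 ± 0.322 CPM per kb.

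RARS1, which charges arginine, the amino acid that ADI-PEG20 removes, was not among the genes that rose. It stood at 58.4, 55.0 and 58.2 CPM in control and 46.7, 42.3 and 44.4 CPM with the drug, so every treated library was below every control. The fall was small (log2 fold change -0.36, SE 0.11, adjusted p = 0.0267; without replicate 3, -0.35), and when each library was dropped in turn it passed in 9 of 12 fits, the highest adjusted p being 0.0823. RARS2, the mitochondrial arginyl enzyme, read 18.6, 19.4 and 13.1 CPM in control and 14.9, 15.4 and 15.3 CPM treated. Its treated values lay inside the control range, and its log2 fold change of -0.16 did not pass the test (SE 0.16, adjusted p = 0.489); without control replicate 3 it fell by 0.32 (adjusted p = 0.0476).

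KARS1, the lysyl enzyme of both compartments and a source of the signalling molecule Ap4A, fell from 211.3, 208.5 and 309.2 CPM to 150.1, 146.6 and 151.1 CPM (log2 fold change -0.70, SE 0.14, adjusted p = 0.00315). The groups did not overlap, and without control replicate 3, the highest of the controls, the log2 fold change was -0.49. VARS1 for valine (log2 fold change -0.87) and FARSA, the alpha subunit of the phenylalanyl enzyme (-0.73), fell as well. Replicate 3 was the highest control in both, and without it the values were -0.63 and -0.45. FARSB, the beta subunit that pairs with FARSA, had a log2 fold change of -0.03 (without replicate 3, 0.10) and did not pass the test. The bifunctional EPRS1 (0.16) and the leucyl enzyme LARS1 (0.43) did not pass either, although LARS1 rose by 0.21 without replicate 3 (adjusted p = 0.00326).

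The scaffold proteins hold several cytosolic synthetases together in the multisynthetase complex. AIMP2 rose (log2 fold change 0.63, SE 0.14, adjusted p = 0.00478; without replicate 3, 0.75). EIF2AK1, on the other strand, covers 28.9% of the exonic bases of AIMP2, and TBCK, also on the other strand, 11.6% of those of AIMP1. The readthrough gene EEF1E1-BLOC1S5 shares 18.7% of the exonic bases of EEF1E1 on the same strand. AIMP1 had a log2 fold change of 0.17 and EEF1E1 of 0.21, and neither passed. EEF1E1 depended on 1 library: its control values were 24.2, 22.7 and 54.6 CPM, and without control replicate 3 it rose by 0.73 on the log2 scale (adjusted p = 2.03e-05). The enzymes assigned to this complex did not move together, since IARS1 and MARS1 rose while QARS1, KARS1 and RARS1 fell.

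**Figure D2:**
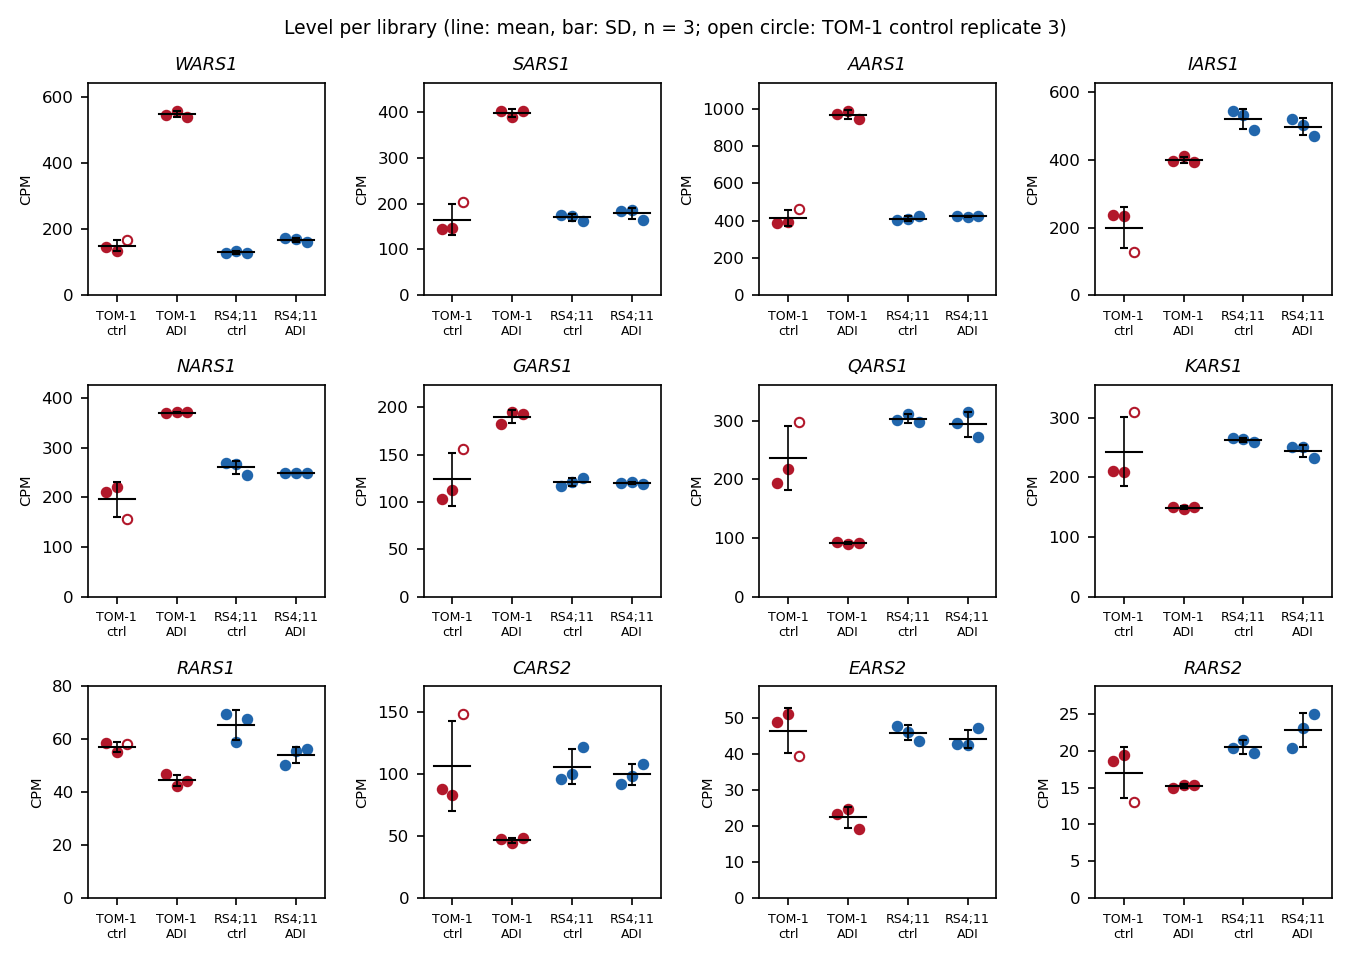
CPM in each library for 12 members in the 4 groups, with a line for the mean and bars for the SD (n = 3), and TOM-1 control replicate 3 as an open circle. WARS1, SARS1, AARS1, IARS1, NARS1 and GARS1 stand higher in treated TOM-1 than in its controls and QARS1, KARS1, RARS1, CARS2 and EARS2 lower, while in RARS2 the groups of TOM-1 overlap.

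Of the 16 mitochondrial enzymes of TOM-1, 7 fell, 0 rose and 9 did not pass edgeR's test, with a median log2 fold change of -0.46, where 15.9% of all genes fell and 15.9% rose. Treated libraries lay wholly below the controls for 8 of them and wholly above for 2, PARS2 and NARS2, against 20.1% and 26.1% of all genes. Without control replicate 3, 10 fell and 1 rose, with a median of -0.47, where 19.8% of all genes fell and 21.8% rose; IARS2, MARS2 and RARS2 joined those that fell and PARS2 was the one that rose. Without ADI-PEG20 replicate 1 of TOM-1 the count that fell was 4. In that fit 21.7% of all genes were called in either direction, against 31.9% over all libraries. Without control replicate 1 NARS2 rose, where 31.9% of all genes were called. Of the 3 members with a positive log2 fold change over all libraries, PARS2 (0.54), NARS2 (0.28) and VARS2 (0.04), none passed. PARS2 and NARS2 each passed in 1 of the 12 fits that left out a library.

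CARS2, the mitochondrial cysteinyl enzyme, is also known to make cysteine persulfides. It held 88.1, 83.2 and 148.3 CPM in control and 47.3, 44.4 and 48.5 CPM treated. All treated libraries lay below all controls, at 0.439 of control (log2 fold change -1.19, SE 0.20, adjusted p = 0.00101), or a log2 fold change of -0.88 without the high control replicate 3.

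EARS2, the mitochondrial glutamyl enzyme, read 48.8, 51.2 and 39.4 CPM in control and 23.5, 24.8 and 19.2 CPM treated. The groups were again apart, at 0.484 of control (log2 fold change -1.05, SE 0.14, adjusted p = 0.000236; without replicate 3, -1.15). AARS2 for alanine (log2 fold change -0.78), FARS2 for phenylalanine (-0.77), TARS2 for threonine (-0.73) and LARS2 for leucine (-0.49) fell too, each with treated libraries below every control. Without replicate 3 the values were -0.88 for AARS2, -0.43 for FARS2, -0.44 for TARS2 and -0.64 for LARS2. FARS2, LARS2, TARS2 and HARS2 lost the call in 1 or 2 of the 12 fits that left out a library.

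HARS1 and HARS2, the cytosolic and mitochondrial histidyl enzymes, are neighbours on chromosome 5 whose start sites lie 85 bases apart and point away from each other. HARS1 went from 84.4, 78.9 and 93.7 CPM to 49.1, 46.3 and 47.6 CPM (log2 fold change -0.85, SE 0.11, adjusted p = 0.000214; without replicate 3, -0.78). HARS2 went from 55.8, 51.9 and 61.7 CPM to 38.8, 43.6 and 42.6 CPM (log2 fold change -0.44, SE 0.12, adjusted p = 0.0137; without replicate 3, -0.37). Both fell with no overlap between groups. 11.7% of the exonic bases of HARS2 are shared with HARS1 on the other strand. As the use of strand in counting is not given, these may not be fully separate measurements.

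VARS2, the mitochondrial valyl enzyme, was too low to follow, with 0 to 55 reads per TOM-1 library and an SE of 0.85 on the log2 scale, and GTF2H4 shares 22.0% of its exonic bases on the same strand. SARS2, for serine, was also low, and 46.2% of its exonic bases belong to AC011455.2 on the same strand and 10.8% to MRPS12 on the other. WARS2 and YARS2, for tryptophan and tyrosine, had log2 fold changes of -0.06 and -0.10 that did not pass the test.

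For 14 amino acids 1 cytosolic gene was set beside 1 mitochondrial gene. In TOM-1 the cytosolic log2 fold change exceeded the mitochondrial one for 11 of the 14, with a median difference of 1.27 on the log2 scale (1.18 without control replicate 3). Over all libraries the widest differences were 2.09 for cysteine, 2.00 for alanine and 1.93 for tryptophan. Without replicate 3 they were 2.18 for alanine, 2.02 for serine and 2.00 for tryptophan, with cysteine at 1.88. The serine difference rests in part on the low SARS2, whose value of -0.57 without replicate 3 did not pass the test. The exceptions were histidine, arginine and valine, the last of which rests on the sparsely read VARS2. For alanine, cysteine and threonine the cytosolic gene rose and the mitochondrial gene fell, each past the threshold, and without replicate 3 this held for 6 amino acids. Of the 14, histidine was the amino acid for which both genes fell, joined by arginine without replicate 3. In RS4;11 the cytosolic value was the higher for 10 of the 14, with a median difference of 0.08 and a range from -0.43 to 0.42.

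Phenylalanine and proline also have separate mitochondrial genes but are not among the 14, since phenylalanine has 2 cytosolic subunits and EPRS1 was already set beside EARS2. FARSA and FARS2 both fell in TOM-1, with and without replicate 3, and differed by 0.04 (without replicate 3, -0.02), while FARSB exceeded FARS2 by 0.74 (0.53). For proline the mitochondrial value was the higher, with a difference of -0.38 between EPRS1 and PARS2 (without replicate 3, -0.56). PARS2 was low and uneven, at 7.25, 8.81 and 8.55 CPM in TOM-1 control and 16.2, 9.85 and 9.71 CPM treated. With these 3 pairings the cytosolic value was the higher in 13 of 17 in TOM-1, in 12 of 17 without replicate 3, and in 12 of 17 in RS4;11.

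**Figure D3:**
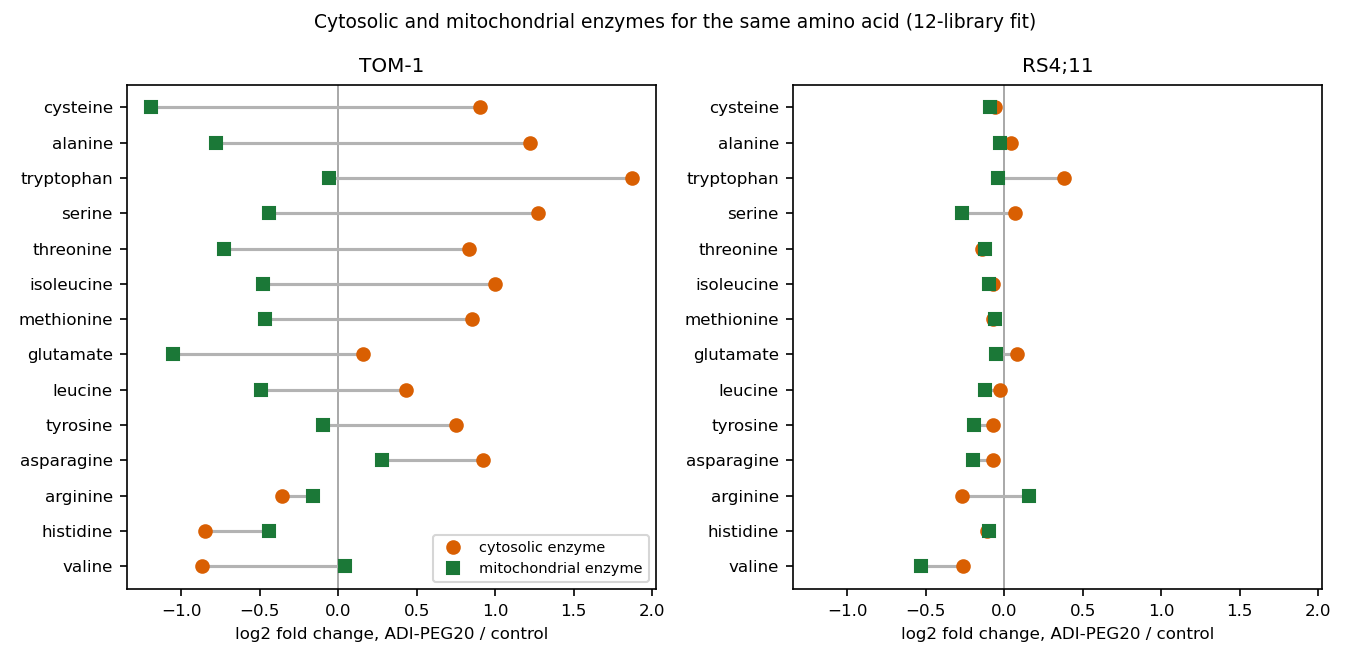
Log2 fold change with ADI-PEG20 of the cytosolic (circles) and mitochondrial (squares) enzymes for 14 amino acids, joined by a line, in TOM-1 and in RS4;11. In TOM-1 the cytosolic member lies to the right for 11 amino acids, with a median difference of 1.27; in RS4;11 the median difference is 0.08.

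The balance between the compartments also changed within single libraries, where no scaling between libraries enters. The summed CPM of the cytosolic members was 5.13, 5.25 and 6.07 times that of the mitochondrial members in TOM-1 control and 11.4, 11.7 and 11.5 times in treated TOM-1. In RS4;11 it was 5.71, 5.66 and 5.62 times in control and 5.98, 5.95 and 5.66 times with the drug. Treated TOM-1 thus lay apart from the other 9 libraries, which fell between 5.13 and 6.07. Both sides of the ratio moved in TOM-1: the cytosolic sum went from 3847.5 ± 209.7 to 5814.8 ± 37.9 CPM and the mitochondrial sum from 703.1 ± 27.1 to 503.3 ± 5.72 CPM (mean ± SD, n = 3). The sums are led by the abundant genes, so the difference of the medians of log2(CPM + 0.5) is given as well. It was 2.10 ± 0.23 in TOM-1 control, 2.80 ± 0.16 in treated TOM-1, 2.03 ± 0.06 in RS4;11 control and 1.98 ± 0.17 in treated RS4;11 (SD, n = 3), and the TOM-1 control value was 1.96 without replicate 3.

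**Figure D4:**
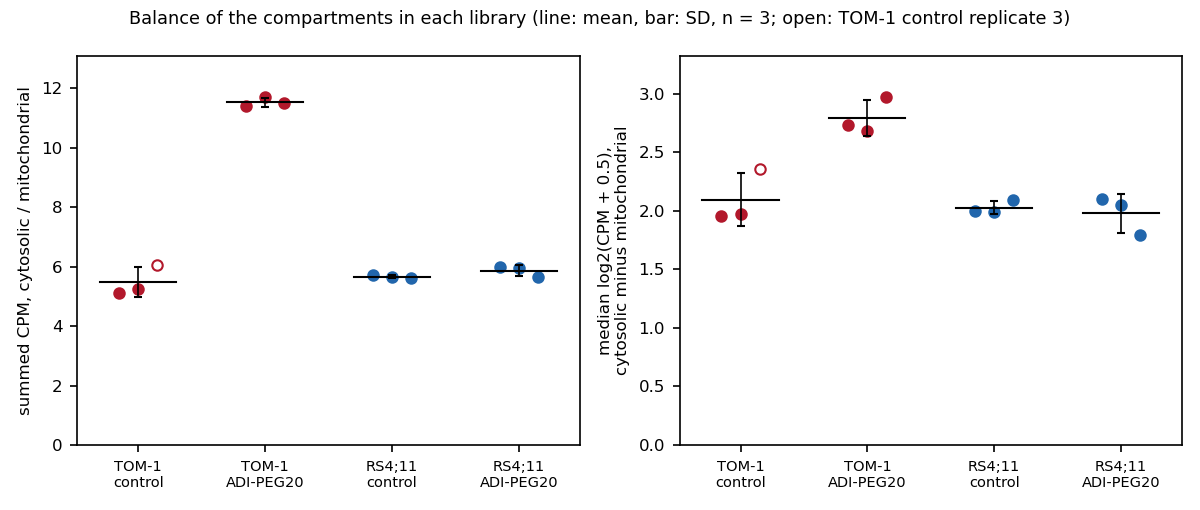
Balance of the compartments per library, as the ratio of summed CPM (left) and as the difference of median log2(CPM + 0.5) (right), cytosolic against mitochondrial members, with a line for the mean and bars for the SD (n = 3). The 3 treated TOM-1 libraries have ratios of 11.4 to 11.7, and the other 9 libraries of 5.13 to 6.07.

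Another share of the libraries moved with treatment in TOM-1. Ribosomal protein genes took 9.21%, 8.95% and 19.75% of counts in TOM-1 control, 5.91% to 6.06% in treated TOM-1 and 8.78% to 9.89% in the RS4;11 libraries. Its part in the levels of the synthetase genes was not tested.

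In RS4;11 no member other than VARS2 had a log2 fold change beyond 0.38 in either direction. By edgeR's test 0 of 23 cytosolic and 0 of 16 mitochondrial members passed, as did 0% of all genes in either direction. At an unadjusted p under 0.05 there were 2 cytosolic members, WARS1 and RARS1, and 0 mitochondrial ones, where 1.87% of all genes were below that level. DESeq2 also called 0 members, and limma's voom with sample quality weights called 1, and 0.098% of all genes. The median log2 fold change was -0.07 over the cytosolic and -0.10 over the mitochondrial members, against 0.00 over all genes tested. Libraries did not overlap between groups for 1 cytosolic member that was higher and for 5 cytosolic and 3 mitochondrial members that were lower, where 7.72% and 9.05% of all genes were higher or lower in this way.

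WARS1 was the member that stood out most in RS4;11 as well. Its levels were 126.9, 134.0 and 128.8 CPM in control and 173.6, 170.5 and 162.4 CPM with ADI-PEG20. The treated libraries were all higher, by a log2 fold change of 0.38 (SE 0.11) with an adjusted p of 1.0 over all libraries. Without TOM-1 control replicate 3, which widens the spread shared by the 4 groups, the same 0.38 had an SE of 0.06 and an adjusted p of 0.00959, in a comparison where 0.317% of all genes were called, 0.202% higher and 0.115% lower.

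RARS1 in RS4;11 read 69.6, 58.8 and 67.6 CPM in control and 50.4, 55.4 and 56.2 CPM treated. The treated libraries were lower in each case, but the log2 fold change, -0.27 with an SE of 0.11, did not pass the test (adjusted p = 1.0). RARS2 had 20.3, 21.5 and 19.7 CPM in control and 20.4, 23.0 and 25.0 CPM treated, with overlapping groups and a log2 fold change of 0.16. AARS1, at 402.6, 407.5 and 424.5 CPM in control and 424.7, 420.1 and 424.8 CPM treated, had a log2 fold change of 0.04 (SE 0.10). QARS1, at 301.8, 311.5 and 297.2 CPM in control and 295.4, 314.3 and 271.4 CPM treated, had one of -0.05 (SE 0.14). AARS1 and QARS1, among the genes that moved most in TOM-1, thus had shifts smaller than their SE in RS4;11.

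The difference between the lines was tested directly, as TOM-1 effect minus RS4;11 effect. 10 cytosolic members had a higher effect in TOM-1 and 2 a lower one, and 3 mitochondrial members had a lower one, where 5.89% of all genes were called higher and 6.05% lower (11.9% in either direction). WARS1 had the largest difference, 1.49 on the log2 scale (SE 0.15, adjusted p = 0.000172), followed by QARS1 at -1.32, SARS1 at 1.20, AARS1 at 1.18, CARS2 at -1.10, IARS1 at 1.07, EARS2 at -0.99 and NARS1 at 0.98. Without TOM-1 control replicate 3 these differences were 1.58, -1.13, 1.38, 1.26, -0.79, 0.83, -1.10 and 0.85 in the same order. For RARS1 the difference was -0.09 (SE 0.16, adjusted p = 0.795) and did not pass, so its fall in TOM-1 was not shown to be larger than the shift in RS4;11.

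GARS1 (0.63, adjusted p = 0.0616) and KARS1 (-0.60, adjusted p = 0.0742) missed the threshold for the difference between lines over all libraries and passed it without TOM-1 control replicate 3. The number of members called moved most when that library was left out. Without it 13 cytosolic members were higher and 5 lower, and 1 mitochondrial member was higher and 7 lower. In that fit 15.7% of all genes were higher and 14.7% lower (30.4% in either direction). The cytosolic count was 12 over all libraries (11.9% of all genes). It was 9 when a library other than a TOM-1 control was left out, where 6.39% to 7.51% of all genes were called. The mitochondrial count was 1 without RS4;11 ADI-PEG20 replicate 3 (7.24% of all genes), RS4;11 control replicate 1 (6.47%) or TOM-1 ADI-PEG20 replicate 2 (6.58%). EARS2 was called in each of the 12 fits that left out a library. WARS1, SARS1, AARS1, CARS1, MARS1, NARS1, TARS1, QARS1 and HARS1 also passed in all 12.

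Before treatment 14 of the 39 members differed between the lines, or 24 without TOM-1 control replicate 3, and all but CARS1 among them were lower in TOM-1. The share of all genes called was 34.7%, or 52.8% without that library. In control culture 1 cytosolic member was higher in TOM-1 (CARS1, log2 difference 0.33, which passed in 2 of 12 fits that left out a library) and 9 were lower, and 4 mitochondrial members were lower, where 16.2% of all genes were higher and 18.4% lower (34.7% in either direction). TARS3, the paralog of TARS1, had the largest difference: 5.0, 9.09 and 4.91 CPM in TOM-1 against 50.0, 43.4 and 43.9 CPM in RS4;11. No TOM-1 library came near the RS4;11 level, and the log2 difference was -2.85 (SE 0.24, adjusted p = 1.94e-06). TARS1 itself differed little, at -0.32 (SE 0.11, adjusted p = 0.0359), and passed in 7 of 12 fits that left out a library.

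IARS1 was 237.6, 233.1 and 129.0 CPM in TOM-1 and 545.0, 531.3 and 488.0 CPM in RS4;11 (log2 difference -1.38, SE 0.19, adjusted p = 0.000116). Its treated TOM-1 level, 392.2 to 410.2 CPM, was above the TOM-1 controls and still below every RS4;11 control. Among mitochondrial enzymes, SARS2 was 3.86, 5.07 and 3.26 CPM in TOM-1 and 9.7, 8.03 and 12.8 CPM in RS4;11 (log2 difference -1.32, SE 0.29, adjusted p = 0.00382). MARS2, the methionyl enzyme, was 35.1, 33.9 and 14.9 CPM in TOM-1 and 59.1, 67.2 and 54.8 CPM in RS4;11 (log2 difference -1.10, SE 0.25, adjusted p = 0.00491). In these 3 genes the lines did not overlap.

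YARS2, the tyrosyl enzyme of mitochondria, was 19.6, 19.1 and 19.6 CPM in TOM-1 and 28.3, 25.9 and 33.4 CPM in RS4;11 (log2 difference -0.59, SE 0.13, adjusted p = 0.00367). AIMP1 read 77.8, 79.4 and 58.8 CPM against 104.7, 101.0 and 101.5 CPM (log2 difference -0.51, SE 0.12, adjusted p = 0.0074). Both genes were lower in every TOM-1 library. VARS1, at 183.2, 197.0 and 291.9 CPM against 322.9, 298.6 and 340.8 CPM (log2 difference -0.52, adjusted p = 0.0232), and EPRS1, at 247.9, 232.8 and 171.9 CPM against 305.8, 309.8 and 261.3 CPM (log2 difference -0.43, adjusted p = 0.0402), were lower as well, but lost the call in some of the fits that left out a library. AARS1, which led the members in both lines per kilobase, did not differ detectably (log2 difference 0.01, SE 0.10, adjusted p = 0.938).

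The cytosolic count in this comparison changed with the library left out, as did the share of all genes called, 34.7% over all libraries. The 10 cytosolic calls became 17 without TOM-1 control replicate 3, 1 higher and 16 lower. In that fit 25.4% of all genes were higher and 27.5% lower, 52.8% in all. The cytosolic calls were 3 without RS4;11 control replicate 1 (25.7% of all genes) and 4 without RS4;11 control replicate 2 (25.8%). They were 5 without RS4;11 ADI-PEG20 replicate 1 (30.3%), TOM-1 ADI-PEG20 replicate 2 (30.1%) or TOM-1 ADI-PEG20 replicate 3 (30.4%). Without TOM-1 control replicate 2 they were 6 (32.4%). The 4 mitochondrial calls became 7 without TOM-1 control replicate 3. Without that library the log2 differences were -2.73 for TARS3, -1.15 for IARS1, -1.19 for SARS2, -0.81 for MARS2, -0.59 for YARS2, -0.38 for AIMP1, -0.76 for VARS1, -0.29 for EPRS1, -0.26 for TARS1 and 0.23 for CARS1. TARS3, IARS1, AIMP1, MARS2, SARS2 and YARS2 passed in all 12 of these fits.

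**Figure D5:**
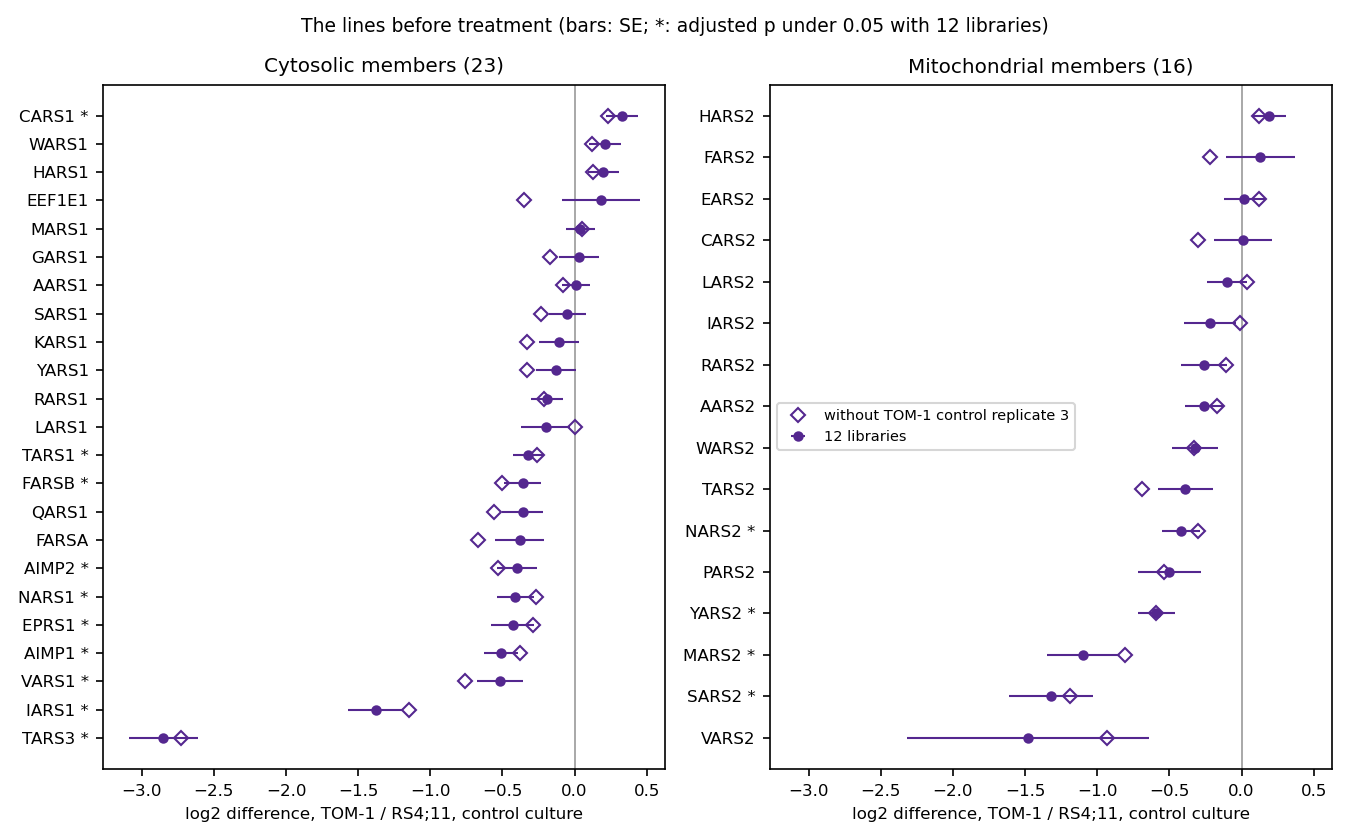
Log2 difference between TOM-1 and RS4;11 in control culture for the 23 cytosolic and 16 mitochondrial members, with bars for the SE and open diamonds for the fit without TOM-1 control replicate 3. TARS3 at -2.85 and IARS1 at -1.38 lie farthest from 0 among the cytosolic members that passed.

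Per kilobase of exon, the cytosolic members had a median of 35.6 CPM per kb in TOM-1 control and 41.3 in RS4;11 control, and the mitochondrial members 9.15 and 10.3. WARS1 moved from rank 17 to rank 4 of the 39 members between TOM-1 control (23.7 ± 2.69 CPM per kb) and treated TOM-1 (86.4 ± 1.47), and SARS1 from rank 6 (43.0 ± 8.66) to rank 2 (103.6 ± 2.15; SD, n = 3). RARS1 held ranks 20 and 23, at 16.7 ± 0.562 and 13.0 ± 0.632 CPM per kb. VARS2 was the least abundant member in both lines.

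The genes with TGATGCAA can be read against these changes. All 6 cytosolic members with the letters in a promoter window rose in TOM-1, with log2 fold changes of 0.83 to 1.22 and a median of 0.91, and all 6 rose without control replicate 3. Of the 13 cytosolic members whose windows lacked them, 4 rose, 5 fell and 4 did not pass, with a median of 0.16; SARS1 and WARS1, with the largest rises, were among these 4. Over all tested genes with a window, 28 of 84 with TGATGCAA rose (33.3%), against 18.4% of the 11299 without, and 7.14% against 18.8% fell. The 84 include the 6 members, so the shares are not separate from the member result. Without replicate 3 the shares that rose were 45.3% and 25.8%. Of genes whose windows held the interferon pattern, 19.4% rose, against 18.5% of those without it.

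Other genes around tRNA charging and the amino acid response were read from lists of named genes, against the 15.9% of all genes that rose and the 15.9% that fell (21.8% and 19.8% without replicate 3). Of 29 tested ATF4 targets other than synthetases, 20 rose and 1 fell in TOM-1 (without replicate 3, 24 and 2), with a median log2 fold change of 1.29. They were led by TRIB3 (3.88), a pseudokinase of the stress response, ASNS (2.63), asparagine synthetase, which was sparsely read, and STC2 (2.38). Of 9 genes of the GCN2 and eIF2 arm, 2 rose and 3 fell (without replicate 3, 3 and 5). The rises were those of the eIF2 phosphatase subunits PPP1R15A (2.97) and PPP1R15B (0.98, or 0.64 without replicate 3). ATF4 itself, which is regulated mainly at translation, had a lower mRNA level (log2 fold change -0.59, SE 0.19, adjusted p = 0.0327; without replicate 3, -0.26).

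Of 18 tested accessory factors of tRNA charging, 3 rose and 5 fell (without replicate 3, 6 and 6). Over all libraries the share that rose was near that of all genes. The share that fell, and both shares without replicate 3, were above those of all genes. Those that rose over all libraries were SEPSECS (1.71, SE 0.53), which makes selenocysteinyl-tRNA, the tRNA exporter XPOT (1.60, SE 0.23) and the tRNA nuclease ELAC1 (0.98, SE 0.20). Without replicate 3 their values were 1.20, 1.32 and 0.88 in the same order. Of 11 mitochondrial translation factors, the elongation factor TUFM fell (-1.64) and the initiation factor MTIF2 rose (0.41), with a list median of 0.03; without replicate 3, 2 rose and 2 fell, with a median of -0.08. Of 20 interferon-stimulated genes, 8 rose and 2 fell with a median of 0.79 (without replicate 3, 10 and 4, with a median of 0.70), including OAS1 (2.39) and IFIT3 (2.24); IFI44 was at 0 in all TOM-1 controls and at a mean of 0.372 CPM after treatment. In RS4;11 edgeR called 0 genes in each of these 5 lists, as it did over all 17349 genes. Without TOM-1 control replicate 3, where 0.317% of all genes were called, ATF5 (0.43, adjusted p = 0.00185), SLC7A11 (0.66, adjusted p = 0.00959) and TUFM (-0.25, adjusted p = 0.0331) passed by edgeR's test.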

How the data were processed

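The authors deposited 1 table of raw read counts per Ensembl gene, with 1 column for each library; per the submitters' processing notes it was made with STAR, SAMtools and featureCounts on hg38. Versions, annotation release, strand setting and the treatment of reads shared by genes are not given in the sources used here. Counts were filtered with filterByExpr, scaled by TMM and fitted with edgeR 4.0.16 (glmQLFit and glmQLFTest) in R 4.3.3, as group means over 12 libraries, with Benjamini-Hochberg adjustment over all 17349 tested genes and a threshold of 0.05. The SE of each log2 fold change is that change, without its sign, over the square root of F. The analysis was tested on simulated data. Alternatives used DESeq2 1.42.0, limma 3.58.1 and libraries left out.

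Members and lists were chosen with earlier results of these data known. All 39 members could be named. Values in every library are given for the 8 members with the largest change past the threshold and no overlap in each contrast, and for arginyl, dual-compartment, neighbouring and paralogous enzymes whatever their values. Of the other lists, the 3 genes with the largest change past the threshold are named; DDIT3 was added for its overlap with MARS1 and ATF4 as the factor its list is named for. Lengths, positions and overlaps came from GENCODE 29 on GRCh38, and overlaps of 10% or more are stated.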

Additional observations from a re-analysis of the deposited data

Results flagged for a closer look

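For 15 members the response to ADI-PEG20 differed between TOM-1 and RS4;11 by edgeR's test of the difference itself. The log2 differences, TOM-1 effect minus RS4;11 effect, were positive for WARS1 (1.49), SARS1 (1.20), AARS1 (1.18), IARS1 (1.07), NARS1 (0.98), CARS1 (0.97), TARS1 (0.97), MARS1 (0.93), YARS1 (0.81) and AIMP2 (0.68). They were negative for QARS1 (-1.32), CARS2 (-1.10), EARS2 (-0.99), AARS2 (-0.75) and HARS1 (-0.73). IARS1 and YARS1 passed in 3, CARS2 in 5 and AARS2 in 8 of 12 fits with 1 library dropped, and AIMP2 passed in 1; the other 10 passed in all 12.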

How the results depend on the processing

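Numbers of members called moved as follows. With the 6 libraries of a contrast fitted alone, 11 cytosolic and 3 mitochondrial members were called for TOM-1 (17.2% of all genes), and 2 and 1 for the lines in control culture (23% of all genes). With limma's voom and sample quality weights, 11 mitochondrial members were called for TOM-1, 1 cytosolic member for RS4;11, 8 mitochondrial members for the difference between lines, and 17 cytosolic and 7 mitochondrial members for the lines in control culture, where 48.6%, 0.098%, 33.8% and 57.9% of all genes were called. With no filter on low counts, 4 cytosolic members were called for the lines in control culture (18.7% of all genes). In that comparison 3 members changed sign to a called lower level in TOM-1, without TOM-1 control replicate 3 and with voom: GARS1 (-0.17 and -0.16), EEF1E1 (-0.35 and -0.31) and CARS2 (-0.30 and -0.23). Their highest values with a library left out were 0.10, 0.36 and 0.12. The cause of these shifts was not tested. The 6-library fits also had fewer samples.

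The treated-minus-control balance of medians in TOM-1 was 0.70, 0.90 without the scaffold proteins and 0.83 without control replicate 3; in RS4;11 it was -0.05 and turned to 0.06 with means in place of medians. Leaving out 1 library at a time gave 16 to 19 cytosolic and 4 to 11 mitochondrial calls for TOM-1, 0 to 1 and 0 to 0 for RS4;11, 9 to 18 and 1 to 8 for the difference between lines, and 3 to 17 and 3 to 7 for the lines in control culture. The share of all genes called in these fits ran from 21.7% to 41.6%, 0% to 0.317%, 6.39% to 30.4% and 25.7% to 52.8% in the same order. Each member in each alternative fit, with or without a library left out, was counted as 1 case. Being called or not was unchanged in 741 cases for TOM-1, 778 for RS4;11, 668 for the difference and 687 for the lines. A call was lost in 22, 0, 46 and 71 cases and gained in 17, 2, 27 and 16, in the same order. The changes of sign to a called level given above for the lines, 6 cases, are counted apart. The difference had fewer cases in all, as it had no 6-library fit. Among the unchanged cases, uncalled members changed sign in 15, 22, 14 and 31, in the same order.

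Samples were not treated as paired by replicate number. Control and treated libraries of the same number deviated together with correlations of -0.062 to 0.145. Not every library correlated best with its own number, though the highest correlation, 0.145, was between the RS4;11 libraries numbered 3. With 3 libraries per group these values cannot exclude a pairing. With the number as a block, 17 cytosolic and 6 mitochondrial members were called for TOM-1, 0 and 0 for RS4;11, 11 and 3 for the difference, and 8 and 4 for the lines, where 30.7%, 0%, 11.2% and 32.5% of all genes were called. VARS2, at 0 to 63 reads per library, was limited by depth.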
